A study of Mus musculus with 12 samples.

Results

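The superoxide dismutases Sod1, Sod2 and Sod3, catalase (Cat) and the peroxiredoxins Prdx1 to Prdx6 were described in MLE-12 cells injured by hyperoxia or by lipopolysaccharide (LPS), with or without exosomes of M2 macrophages (M2-Exo). The 10 genes were taken by symbol from the table of 34745 genes, and each symbol matched 1 row. The 12 RNA-seq libraries fell into 4 groups of 3. LPS cells were kept in 21% oxygen with 100 ng/mL LPS, and LPS + M2-Exo cells received 10 µg/mL M2-Exo after the LPS. Hyp cells were kept in 85% oxygen with no LPS, and Hyp + M2-Exo cells received the same dose of M2-Exo after the exposure. The labels give 24 h for all 4 groups. MLE-12 is a transformed line of mouse alveolar type II (AT II) cells, the surfactant-producing cells of the alveolus, and all libraries share that line. LPS is a component of the outer membrane of Gram-negative bacteria that starts an inflammatory response, and M2-Exo are vesicles from macrophages polarized with interleukin-4. No untreated library was part of these data, so oxygen and LPS differed together between the injuries, and the part of each cannot be told apart. The labels do not say whether the 3 libraries of a group came from separate cultures, so p-values measure the spread between these libraries only, which may be technical.

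Superoxide is formed when oxygen takes up a stray electron, mostly in mitochondria and by NADPH oxidases, and oxygen-exposed lung cells are known to form more of it. Dismutases turn superoxide into hydrogen peroxide: Sod1 in the cytosol with copper and zinc, Sod2 in the mitochondrial matrix with manganese, and Sod3 outside the cell. Hydrogen peroxide is then removed by catalase in peroxisomes and by peroxiredoxins, which oxidize a cysteine of their own and are mostly reduced again by thioredoxin. Prdx1 and Prdx2 work mainly in the cytosol, Prdx3 in mitochondria, Prdx4 in the endoplasmic reticulum and Prdx5 in several compartments. Prdx6 uses glutathione instead of thioredoxin, and it also has a phospholipase activity that takes part in the turnover of lung surfactant. Sod2 is known to be induced by inflammatory signals, and Prdx1 is a known target of the antioxidant factor NRF2.

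Total counts ranged from 16021833 to 24074616 per library and were higher in all Hyp and Hyp + M2-Exo libraries (from 20231632) than in all LPS and LPS + M2-Exo libraries (up to 19185116). The cell identity was checked against marker lists. Of 10 AT II markers, Sftpa1 and Sftpd had at most 1 count in any library, while Sftpc lay at 21.5 to 23.3 CPM (counts scaled to library size) in LPS and at 10.6 to 12.2 CPM in Hyp. Among 7 epithelial markers, Krt8 and Krt19 were abundant, but Epcam stayed at or below 1.18 CPM, Cldn4 and Krt18 did not pass 4 counts in any library, and Cdh1 was at 15.6 to 17.4 CPM in LPS and 3.22 to 3.74 CPM in Hyp. Macrophage genes were present although the line is epithelial, with Ptprc (CD45) at 46.1 to 53.7 CPM in LPS. The markers thus go in part against the labelled cell type in all 4 groups, and every value below is that of libraries labelled MLE-12, whose cell identity these data do not settle. The summed CPM of the 12 macrophage markers ran from 445 to 490 in LPS, 341 to 398 in LPS + M2-Exo, 117 to 122 in Hyp and 90.5 to 137 in Hyp + M2-Exo. The other lists also moved with the injury. The AT II list summed to 428 to 443 CPM in LPS and 250 to 265 CPM in Hyp, the epithelial list to 666 to 708 and 882 to 900 CPM, and the 7 fibroblast and endothelial markers to 34.4 to 36.9 and 12.4 to 14.9 CPM. Single markers did not all follow these sums. In Hyp against LPS, 4 of 5 epithelial markers tested fell while Krt19 rose, and of 6 fibroblast and endothelial markers tested 2 fell while Pecam1 (6.59-fold) and Kdr (6.15-fold) rose. In these bulk samples, fewer cells of a type and less RNA per cell cannot be told apart.

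The level of each gene was first compared per length, in FPKM, the fragments counted per gene scaled for gene length and library size. In the LPS libraries Sod1 was the most abundant of the 10 genes at 298.5 ± 7.56 FPKM (SD, n = 3), followed by Prdx1 at 155.4 ± 5.22. Prdx4 (46.0 FPKM), Cat (41.6), Sod2 (40.5) and Prdx2 (39.2) came next, and among these the ranges of Cat and Sod2 and of Sod2 and Prdx2 overlapped between libraries. Prdx3 stood at 30.6 ± 1.00 FPKM, Prdx5 at 20.01, Prdx6 at 8.43 and Sod3 at 0.113. In Hyp the order changed in the middle. Prdx3 moved from rank 7 to rank 3 at 37.1 ± 0.756 FPKM, above Prdx4 (26.9), Sod2 (22.0), Prdx2 (19.6) and Cat (19.5), of which only the last pair overlapped. Sod1 (240.6 ± 6.60 FPKM) and Prdx1 (95.5 ± 1.80) stayed at the top, and Prdx5, Prdx6 and Sod3 at the bottom. With M2-Exo the order was that of the same injury without it, except that Prdx2 stood above Sod2 in LPS + M2-Exo at 41.8 against 35.7 FPKM. Neighbours that overlapped were Cat and Prdx2 in LPS + M2-Exo, and Sod2, Prdx2 and Cat in Hyp + M2-Exo. Summed over the 10 genes, the level was 680.2 ± 8.18 FPKM in LPS, 669 ± 9.98 in LPS + M2-Exo, 478.1 ± 4.11 in Hyp and 506 ± 20.4 in Hyp + M2-Exo, and Sod1 and Prdx1 made up most of each sum.

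**Figure D1:**
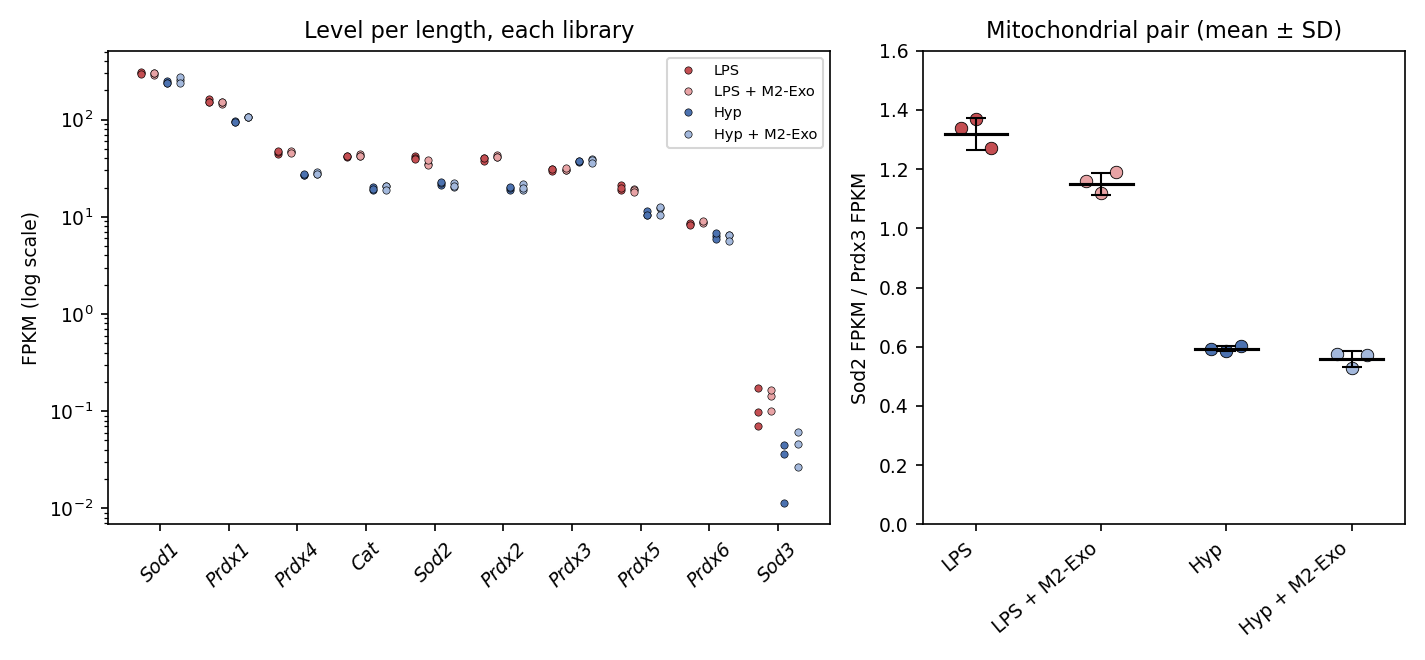
Left, FPKM on a log scale of each of the 10 genes in each of the 12 libraries, coloured by group and ordered by the LPS mean. Right, the ratio of Sod2 to Prdx3 FPKM per library with mean ± SD (n = 3), which lay between 1.27 and 1.37 in LPS and between 0.586 and 0.603 in Hyp.

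The genes lie on 9 chromosomes of the mouse genome (GRCm38), and Prdx3 and Prdx5 share chromosome 19. Sod1 is at chr16:90220742-90226322, Sod2 at chr17:13007839-13018119, Sod3 at chr5:52363791-52371418, Cat at chr2:103453849-103485160 and Prdx1 at chr4:116685544-116700822. Prdx2 is at chr8:84969587-84974834, Prdx3 at chr19:60864051-60874556, Prdx4 at chrX:155323918-155340754, Prdx5 at chr19:6906697-6910106 and Prdx6 at chr1:161240112-161251219. Prdx2 overlaps Rnaseh2a and Prdx5 overlaps Trmt112, each on the opposite strand. The labels name a library kit that does not keep strand, so reads from the overlapping parts cannot be told apart. Transcripts of Prdx5 and Trmt112 share 360 identical bases, and Trmt112 held 21% as many counts as Prdx5 over all 12 libraries. The share differed by injury: Trmt112 had mean counts of 170 in LPS and 333 in Hyp, against 1392 to 1545 and 946 to 969 for Prdx5. Prdx2 shares 176 identical bases with its neighbour Junb, whose mean counts went from 3440 in LPS to 9740 in Hyp, and 154 with Rnaseh2a. Prdx1 matches Gm21399, which has no row in the table, over 597 bases at 98.3% identity, so its reads could have been split.

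Upstream sequences of 8 of the 10 genes were read from RefSeq (GRCm38.p6). Those of 4 genes are shown because they cover the range of the injury differences described below: Cat at the lower end, Prdx1 as the gene with an unadjusted p under 0.05 in the interaction of injury and M2-Exo, Sod1 as the most abundant gene and Prdx3 as the one that was higher in Hyp. Each is the 250 bases before the RefSeq start, 5′ to 3′ on the gene's strand. Capitals mark matches on either strand to the core of the antioxidant response element bound by NRF2 (TGACNNNGC), an AP-1 site (TGANTCA), a GC box (GGGCGG) or a CCAAT box (CCAAT).
Cat, chr2:103485154-103485403 (minus strand): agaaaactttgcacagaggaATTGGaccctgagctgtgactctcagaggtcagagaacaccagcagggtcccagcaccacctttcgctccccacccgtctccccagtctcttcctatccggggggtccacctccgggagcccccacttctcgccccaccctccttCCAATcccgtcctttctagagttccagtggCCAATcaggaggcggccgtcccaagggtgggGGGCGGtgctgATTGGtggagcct
Prdx1, chr4:116685349-116685598 (plus strand): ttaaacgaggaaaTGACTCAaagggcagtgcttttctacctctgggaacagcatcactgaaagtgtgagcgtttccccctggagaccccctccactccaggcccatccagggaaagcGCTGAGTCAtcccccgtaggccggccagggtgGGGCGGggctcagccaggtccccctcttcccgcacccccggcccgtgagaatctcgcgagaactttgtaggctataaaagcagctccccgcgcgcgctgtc
Sod1, chr16:90220512-90220761 (plus strand): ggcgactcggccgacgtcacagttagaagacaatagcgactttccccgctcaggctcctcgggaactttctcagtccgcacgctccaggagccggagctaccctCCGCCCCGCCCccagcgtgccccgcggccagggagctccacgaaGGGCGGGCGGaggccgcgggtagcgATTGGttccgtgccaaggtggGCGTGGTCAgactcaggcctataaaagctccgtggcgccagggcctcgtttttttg
Prdx3, chr19:60874539-60874788 (minus strand): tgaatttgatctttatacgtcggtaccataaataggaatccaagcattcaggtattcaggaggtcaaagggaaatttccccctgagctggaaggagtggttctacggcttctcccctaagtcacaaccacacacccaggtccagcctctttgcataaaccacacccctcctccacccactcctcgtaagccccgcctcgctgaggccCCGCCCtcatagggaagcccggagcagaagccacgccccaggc

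Prdx1 and Sod1 were the 2 of 8 genes with the antioxidant response element core, at 133 to 125 and 56 to 48 bases before the start, and 10.2% of 32851 promoters of the same length held one. Prdx1 alone held the AP-1 letters, at 237 to 231 and at 131 to 125 bases before the start, where they overlap the antioxidant response element match, against 6.75% of promoters. A CCAAT box stood in 4 of 8 genes, with 4 matches in Cat, and in 33.8% of promoters. The GC box was found in 7 of 8 genes and in 32.7% of promoters, and Prdx2 held none of the 4 motifs. These are matches of letters, and binding was not measured.

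The injuries were compared as Hyp against LPS, which asks how the antioxidant genes stood in cells exposed to oxygen relative to cells exposed to LPS. Sod1, Sod2, Cat, Prdx1, Prdx2, Prdx4, Prdx5 and Prdx6 were lower in Hyp, from 2.28-fold in Cat to 1.32-fold in Sod1, and Prdx3 was 1.14-fold higher. All 9 genes tested were called by edgeR's quasi-likelihood test at a Benjamini-Hochberg adjusted p under 0.05, and in each of the 9 the 3 Hyp libraries did not overlap the 3 LPS libraries. A call by itself set them little apart, since 75.8% of 13805 genes were called (38.0% higher and 37.8% lower) and 78.8% did not overlap. The direction was uneven, with 8 of 9 lower against 37.8% of all genes. The median log2 fold change of the 9 genes was -0.86, against 0.01 over all genes tested. Sod3 had too few counts for this fit of 6 libraries. The fit over all 12 called it lower (adjusted p = 0.00531 in edgeR). It passed that filter through its higher counts in LPS and LPS + M2-Exo libraries, so this call is not independent of the direction.

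**Figure D2:**
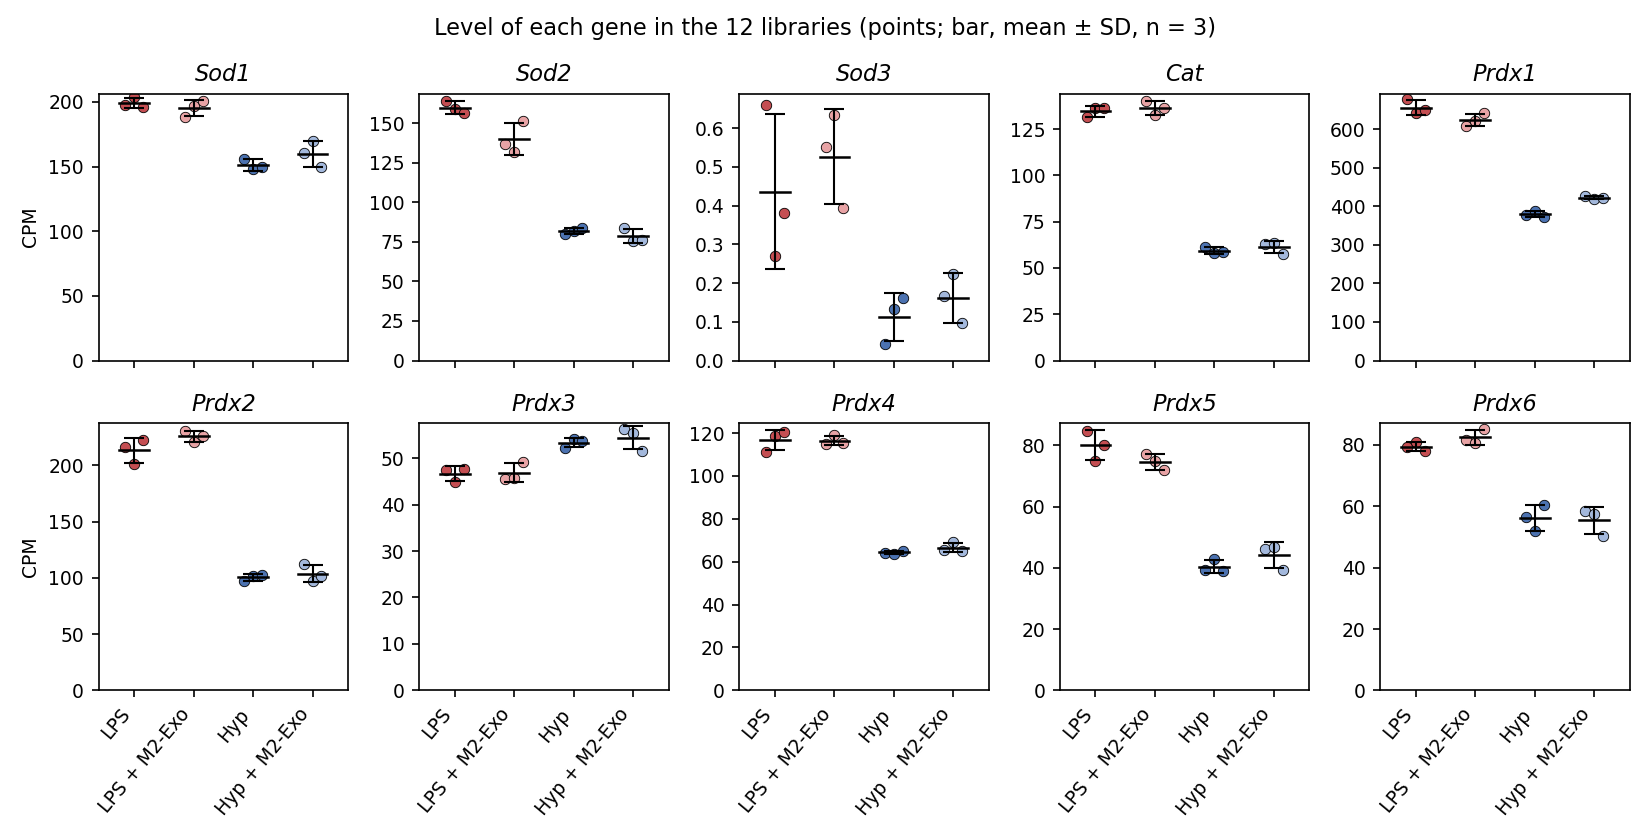
CPM of each of the 10 genes in the 12 libraries by group (points; line and bars, mean ± SD, n = 3), with every axis from 0. In 9 panels the hyperoxia libraries lie apart from and below the LPS libraries with the same M2-Exo treatment, and in the Prdx3 panel they lie above them.

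Among the dismutases, Sod2 showed the larger difference of the 2 tested in the fit of 6 libraries. It was at 164.2, 158.9 and 156.3 CPM in the LPS libraries and at 79.9, 82.0 and 83.9 CPM in Hyp. Every Hyp library thus held about the same level, well under the lowest LPS library. The log2 fold change was -0.97 (SE 0.036), 1.96-fold lower, with an adjusted p of 1.73e-07. Sod1 lay at 197.3, 203.7 and 196.2 CPM in LPS and at 156.2, 147.8 and 149.6 CPM in Hyp, so that the groups were apart by more than their spread although the difference was small. It fell by 0.40 (SE 0.034) on the log2 scale, with an adjusted p of 1.37e-05. Extracellular Sod3 was close to the limit of detection, with 12, 5 and 7 counts in LPS and 1, 3 and 4 counts in Hyp. Its summed counts, scaled for depth, were 3.66-fold higher in LPS, with an exact binomial 95% interval of 1.59 to 9.43 that covers counting error only.

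Catalase differed most among the 9 genes tested. It was at 131.4, 136.5 and 136.3 CPM in LPS and at 61.4, 58.1 and 58.6 CPM in Hyp, with little spread in either group. The log2 fold change was -1.19 (SE 0.039), with an adjusted p of 9.96e-08, and 11.2% of all genes tested had a lower one. Since Sod1 differed less than Cat, the ratio of Sod1 to Cat FPKM, which does not depend on library scaling, was 6.99 to 7.29 in LPS and 12.3 to 12.4 in Hyp.

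Prdx2 and Prdx1, the cytosolic peroxiredoxins, were both lower in Hyp. Prdx2 lay at 216.5, 201.2 and 222.3 CPM in LPS and at 96.9, 101.6 and 102.9 CPM in Hyp, and it fell by 1.09 on the log2 scale (SE 0.046, adjusted p = 3.07e-07). Junb and Trmt112, with which Prdx2 and Prdx5 share sequence, moved the other way, with log2 fold changes of 1.12 and 0.59, and Rnaseh2a fell by 0.42. Prdx1, the most abundant peroxiredoxin, was at 677.2, 641.4 and 649.2 CPM in LPS and at 377.8, 387.9 and 373.5 CPM in Hyp. It fell by 0.79 (SE 0.033) on the log2 scale, or 1.73-fold, with an adjusted p of 2.91e-07.

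Prdx3 was the exception among the peroxiredoxins. It lay at 47.5, 44.8 and 47.8 CPM in LPS and at 52.2, 54.1 and 53.8 CPM in Hyp, so that the groups did not overlap but came close. It rose by 0.19 on the log2 scale (SE 0.048, adjusted p = 0.00734), and 59.9% of all genes had a lower log2 fold change. Both Prdx3 and Sod2 work in mitochondria, and the ratio of Sod2 to Prdx3 FPKM went from 1.34, 1.37 and 1.27 in the LPS libraries to 0.592, 0.586 and 0.603 in Hyp. Per length, Sod2 therefore stood above Prdx3 in every LPS library and below it in every Hyp library.

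The other peroxiredoxins fell. Prdx5 went from 80.0 ± 4.87 to 40.3 ± 2.14 CPM (log2 fold change -0.99, adjusted p = 2.53e-06), and Prdx4, of the secretory pathway, from 116.8 ± 4.87 to 64.4 ± 0.697 CPM (-0.86, adjusted p = 6.28e-07). Prdx6 differed least of these, from 79.5 ± 1.47 to 56.3 ± 4.25 CPM, with a log2 fold change of -0.50 (adjusted p = 0.000108).

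Markers of macrophages moved the same way as the 8 lower genes. Of the 12 markers 11 were tested and 10 fell in Hyp against LPS, among them Csf1r (5.54-fold), Adgre1 (6.04-fold), Ptprc (5.69-fold) and Lyz2 (3.96-fold). None was at 0 in every library, and Marco, an alveolar macrophage receptor, was at 3.13 to 4.35 CPM in LPS and at or below 0.0403 CPM in Hyp. Of 7 AT II markers tested 5 fell, with Nkx2-1 4.36-fold lower, and 2 rose, Sftpb 3.08-fold and Etv5 1.42-fold. The part of cell composition in the differences of the antioxidant genes was not tested.

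**Figure D3:**
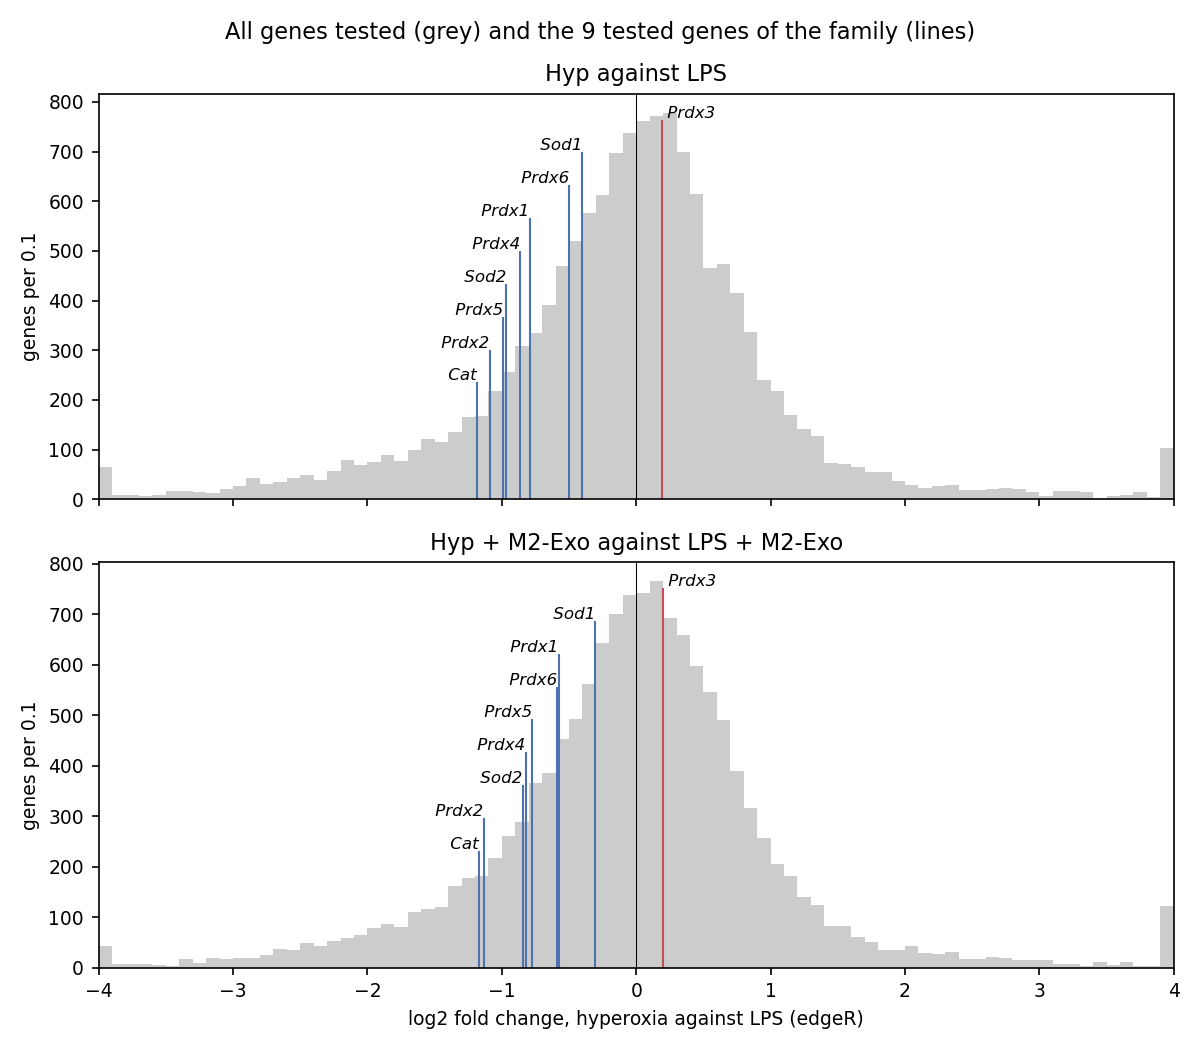
Number of genes per 0.1 of log2 fold change over all genes tested (grey) in Hyp against LPS (top) and in Hyp + M2-Exo against LPS + M2-Exo (bottom), with lines at the 9 tested genes, whose height carries no value, and the outermost bars holding all genes beyond the axis. The 8 genes lower in hyperoxia lie between -1.19 and -0.30, left of the centre, and Prdx3 lies at 0.19 and 0.20.

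The same comparison was made in the 6 other libraries, Hyp + M2-Exo against LPS + M2-Exo. Again all 9 genes tested were called and did not overlap, 8 lower and Prdx3 higher. Over all 13660 genes tested, 73.7% were called, 36.5% lower and 37.1% higher, and 76.8% did not overlap. Called lower in both comparisons were 8 of the 9 genes, against 33.8% of the 13535 genes tested in both. The median log2 fold change was -0.77, against 0.01 over all genes.

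Catalase was at 140.1, 132.7 and 136.2 CPM in LPS + M2-Exo and at 62.7, 63.4 and 57.4 CPM in Hyp + M2-Exo. Its log2 fold change of -1.17 (SE 0.053, adjusted p = 5.2e-07) was followed by that of Prdx2 at -1.14 (SE 0.054, adjusted p = 6.71e-07). Sod2 differed by -0.84, Prdx4 by -0.82, Prdx5 by -0.77, Prdx6 by -0.59, Prdx1 by -0.58 and Sod1 by -0.30, with adjusted p-values up to 0.000813. Prdx3 lay at 45.6, 45.7 and 49.2 CPM in LPS + M2-Exo and at 56.2, 55.4 and 51.5 CPM in Hyp + M2-Exo, and rose by 0.20 on the log2 scale (SE 0.059, adjusted p = 0.0139). For Sod3, 9, 10 and 7 counts in LPS + M2-Exo stood against 4, 5 and 2 counts, a ratio of 3.02 (1.44 to 6.77). Macrophage markers were again lower in 10 of 11 tested, with Ptprc at 32.9 to 39.8 CPM in LPS + M2-Exo and 6.24 to 9.71 CPM in Hyp + M2-Exo.

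**Figure D4:**
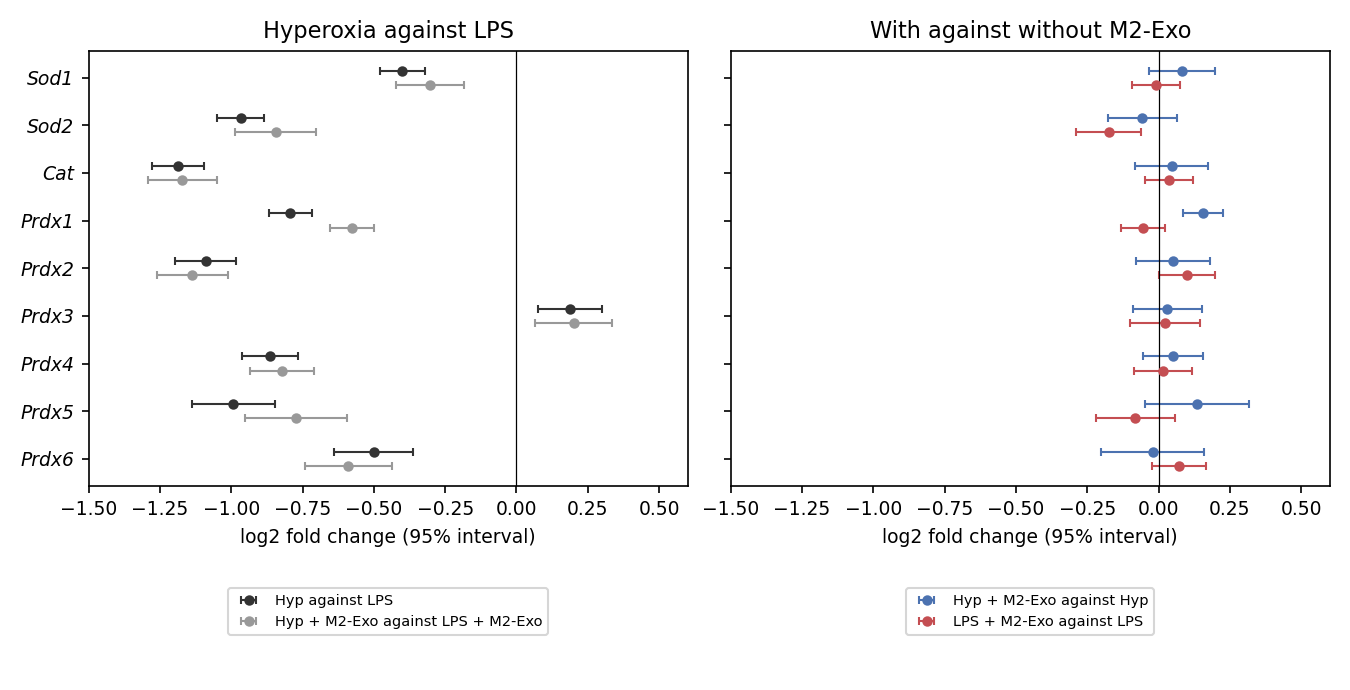
Log2 fold change of the 9 genes tested in every comparison, with 95% intervals, between the injuries (left) and with against without M2-Exo within each injury (right). The differences between injuries run from -1.19 to 0.20, and those with M2-Exo from -0.18 to 0.16.

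M2-Exo was then compared with no M2-Exo within each injury. In hyperoxia 0 of the 9 genes tested were called by edgeR, and none by DESeq2 or limma, while 1 (Prdx1) had an unadjusted p under 0.05. Over all 13815 genes 14 (0.101%) were called and 8.48% had an unadjusted p under 0.05. Prdx1 was at 377.8, 387.9 and 373.5 CPM in Hyp and at 427.1, 418.3 and 421.2 CPM in Hyp + M2-Exo. All 3 libraries with M2-Exo lay above all 3 without it, as was so in either direction for 15.6% of genes. The log2 fold change was 0.16 (95% interval 0.09 to 0.22; unadjusted p = 0.000827) and did not pass the adjustment over all genes (adjusted p = 0.375 in edgeR).

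For the other genes in hyperoxia the groups overlapped. Prdx5 differed by 0.13 on the log2 scale (95% interval -0.05 to 0.32) and Sod1 by 0.08 (-0.03 to 0.20). Catalase differed by 0.05 (-0.08 to 0.17), Prdx2 by 0.05 (-0.08 to 0.18), Prdx4 by 0.05 (-0.06 to 0.16) and Prdx3 by 0.03 (-0.09 to 0.15). Sod2 at -0.06 (-0.18 to 0.06) and Prdx6 at -0.02 (-0.20 to 0.16) were the only ones below 0. These intervals leave room for differences of up to 0.32 on the log2 scale, and adjusted p-values in edgeR ran from 0.634 to 0.945. Sod3 had 8 counts in Hyp and 11 in Hyp + M2-Exo, a ratio of 1.46 (0.536 to 4.19).

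In the LPS libraries all 10 genes passed the edgeR filter and 0 were called by edgeR. DESeq2 and limma called none either, although DESeq2 gave Sod3 no adjusted p and limma tested it only with no filter. In edgeR 2 genes (Sod2 and Prdx2) had an unadjusted p under 0.05. Over all 13353 genes 25 (0.187%) were called and 11.1% had an unadjusted p under 0.05. Sod2 lay at 164.2, 158.9 and 156.3 CPM in LPS and at 136.5, 131.7 and 151.2 CPM in LPS + M2-Exo. The groups did not overlap, as for 16.6% of genes, although 1 library with M2-Exo came within a few CPM of the lowest without it. The log2 fold change of -0.18 (95% interval -0.29 to -0.06; unadjusted p = 0.00809) had an adjusted p of 0.276 in edgeR. Beside it, 10 of 11 macrophage markers tested had a negative log2 fold change, 7 of them with an unadjusted p under 0.05 and 0 called by edgeR, and the summed marker level did not overlap between LPS and LPS + M2-Exo. Their part in the Sod2 value was not tested.

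Prdx2 was at 216.5, 201.2 and 222.3 CPM in LPS and at 230.3, 220.7 and 226.2 CPM in LPS + M2-Exo, which overlapped (0.10 on the log2 scale, adjusted p = 0.442 in edgeR). Prdx1 lay at 677.2, 641.4 and 649.2 CPM without and at 608.6, 621.6 and 640.7 CPM with M2-Exo. These groups did not overlap by a narrow margin, and the log2 fold change of -0.06 (95% interval -0.13 to 0.02) had an adjusted p of 0.609. The remaining tested genes other than Sod3 lay between -0.08 (Prdx5) and 0.07 (Prdx6). Sod3, with 24 counts in LPS and 26 in LPS + M2-Exo, had a ratio of 1.21 (0.666 to 2.19).

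Whether the M2-Exo effect differed between the injuries was tested by the interaction term over all 12 libraries. Of the 10 genes 0 were called by edgeR and 1 (Prdx1) had an unadjusted p under 0.05. Over all 14187 genes 5 (0.0352%) were called and 9.78% had an unadjusted p under 0.05. Prdx1 was higher in every Hyp + M2-Exo library than in every Hyp library and lower in every LPS + M2-Exo library than in every LPS library, and the difference of the effects was 0.22 on the log2 scale (SE 0.044, 95% interval 0.12 to 0.31). Its adjusted p was 0.191 in edgeR and 0.00672 in DESeq2, the range over the 22 alternatives being 0.00672 to 0.408. Prdx5 had the same difference of 0.22 with a wider interval (-0.01 to 0.45) and an adjusted p of 0.523. In the other 8 genes the adjusted p was 0.628 or more.

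Peroxiredoxins depend on thioredoxin for reduction and dismutases on metals, so a list of 35 partner and source genes was read beside them. In Hyp against LPS 31 were tested, and 12 rose and 8 fell, with a median log2 fold change of 0.04. These 20 calls stand beside 75.8% of all genes called, so the list was not called more often than genes in general. In Hyp + M2-Exo against LPS + M2-Exo 13 rose and 10 fell, with a median of 0.16, and these 23 calls of 31 stand beside 73.7% of all genes. Of the 15 genes grouped as thioredoxin partners 5 rose and 5 fell without M2-Exo, and 4 rose and 7 fell with it. The group also holds the glutaredoxins Glrx and Glrx2 and the glutathione transferase Gstp1, of which Glrx and Gstp1 fell in both comparisons. Of the 6 metal and import factors 2 rose without and 4 with M2-Exo, and none fell. Of the 14 superoxide and peroxide sources 10 were tested, and 5 rose and 3 fell in both comparisons. Nox1, Nox4, Duox2 and Lpo had too few counts to be tested.

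The largest difference was in Cybb, the catalytic subunit of the phagocyte NADPH oxidase, at 157.7 ± 12.5 CPM in LPS and 8.64 ± 1.01 CPM in Hyp. Its log2 fold change was -4.19 (adjusted p = 2.77e-08), and -3.79 with M2-Exo (adjusted p = 1.13e-06). Cybb is itself typical of macrophages and fell together with the macrophage markers. The monoamine oxidases, which form hydrogen peroxide at the outer mitochondrial membrane, went in opposite directions. Maob fell from 26.4 to 5.87 CPM (-2.18, adjusted p = 7.57e-07) and Maoa rose from 113.1 to 247.5 CPM (1.13, adjusted p = 2.03e-07). Duox1, another oxidase that forms hydrogen peroxide, rose from 8.57 to 18.5 CPM (1.11, adjusted p = 3.28e-06).

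The sestrins, stress-induced proteins that act on peroxide defence, did not move together. Sesn1 fell from 49.2 to 13.7 CPM (-1.85, adjusted p = 1.44e-07), and Sesn2 rose from 22.4 to 70.6 CPM (1.66, adjusted p = 1.78e-07), whereas Sesn3 was not called without M2-Exo (-0.08, adjusted p = 0.331) or with it (-0.11, adjusted p = 0.397). Txnip, which binds and inhibits thioredoxin, rose from 69.9 ± 16.3 to 156.2 ± 41.9 CPM (1.16, adjusted p = 0.0019) with wide spread between libraries. Glrx, a glutaredoxin, fell from 7.92 to 3.98 CPM (-0.99, adjusted p = 0.000194). Cybb, Maob, Maoa, Duox1, Sesn1, Sesn2, Txnip and Glrx were all called in the same direction with M2-Exo, with adjusted p-values up to 0.000464. Txnrd1, which reduces cytosolic thioredoxin, had a log2 fold change of -0.07 without M2-Exo, which was not called (adjusted p = 0.0698), and fell by 0.14 with M2-Exo (adjusted p = 0.0155). Its mitochondrial counterpart Txnrd2 fell by 0.91 without M2-Exo (adjusted p = 0.000334) and by 0.72 with it (adjusted p = 0.000256). Of the thioredoxins themselves, Txn1 fell by 0.33 without M2-Exo (adjusted p = 0.00838 in edgeR) and by 0.53 with it (adjusted p = 0.000196). Txn2 rose by 0.66 without M2-Exo (adjusted p = 0.0259), with wide spread in Hyp (33.8 ± 11.6 CPM). With M2-Exo Txn2 was not called (-0.09, adjusted p = 0.468).

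**Figure D5:**
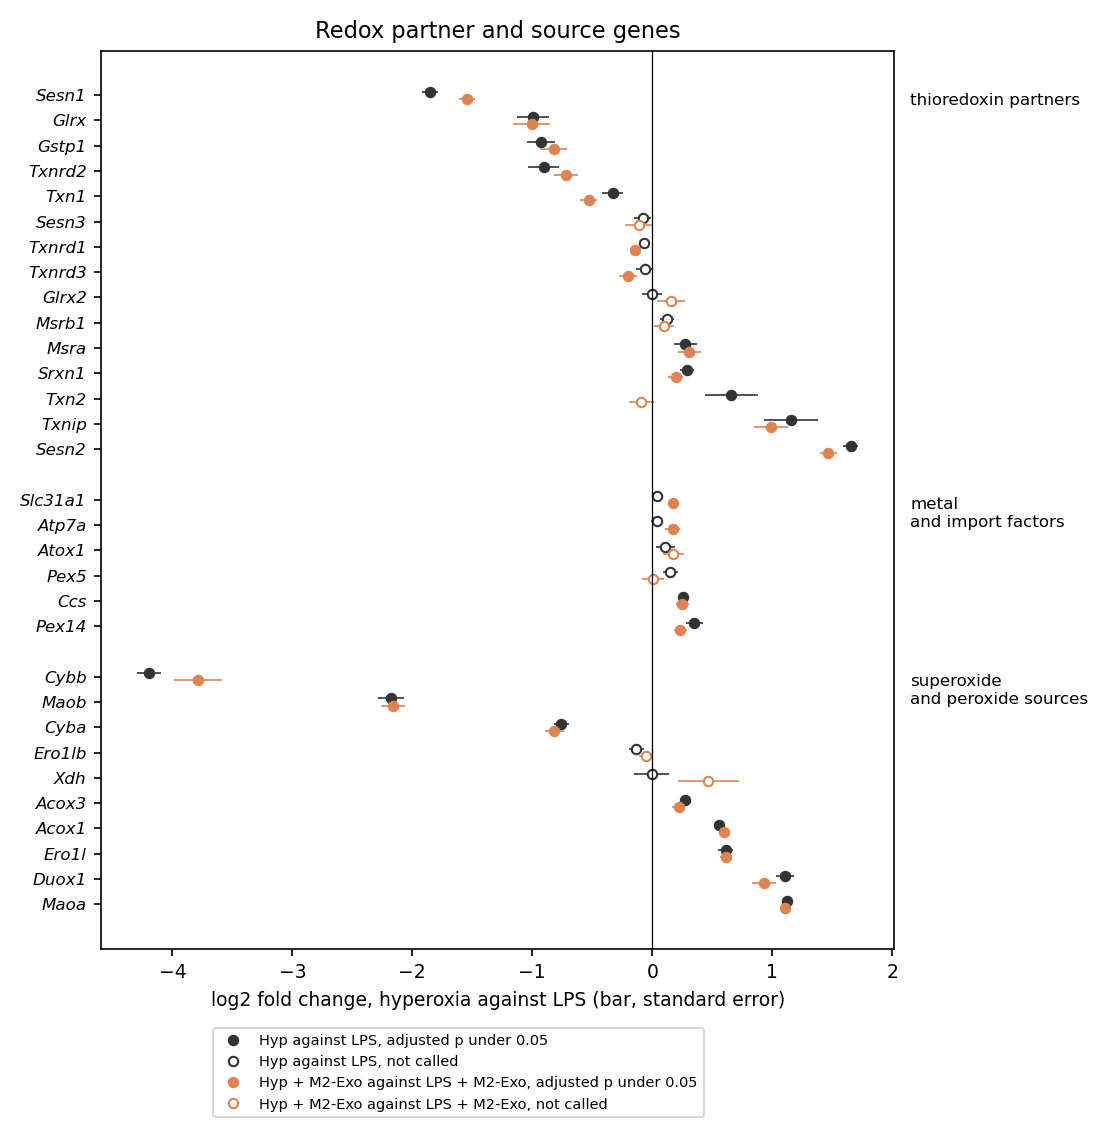
Log2 fold change with standard error of the 31 tested partner and source genes, hyperoxia against LPS, without M2-Exo (dark) and with M2-Exo (orange), grouped by role, with filled points called by edgeR. Cybb lies furthest left at -4.19 and Sesn2 furthest right at 1.66, and the metal and import factors stay close to 0.

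With against without M2-Exo, 0 of the 31 genes were called by edgeR in either injury, with an unadjusted p under 0.05 in 4 in hyperoxia and 5 in LPS, beside 8.48% and 11.1% of all genes, and limma called 0. DESeq2 called 0 in hyperoxia and 1 in LPS, which was Cybb, among 130 calls over all genes in LPS. Cybb went from 157.7 ± 12.5 CPM in LPS to 116.5 ± 8.66 CPM in LPS + M2-Exo, which is a difference of -0.42 on the log2 scale with an adjusted p of 0.11 in edgeR.

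Of the 10 genes, Sod3 and Cat had the widest range of group means (1.6 and 1.2 on the log2 CPM scale) and Prdx3 the narrowest (0.22). Over the 12 libraries, the genes whose log2 CPM was most like that of Cat among 9320 searched were Ctnnd1 (Pearson r = 0.9986), Sall1 (0.9984) and Mlph (0.9983). Ctnnd1 had means of 411 CPM in LPS and 225 CPM in Hyp. For Sod3, with few counts, they were Ak3 (0.9309), Ikbip (0.9307) and Ccny (0.9288). These are descriptions of libraries that fall into separate injury groups, whose difference sets most of each r.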

How the data were processed

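Poly(A) RNA of 12 MLE-12 libraries was sequenced on an Illumina NovaSeq. The authors filtered reads with Seqtk and mapped them with HISAT2 2.0.4; the submitters' processing notes also name StringTie 1.3.0, edgeR and build GRCm38. The annotation version and the counting program are not given in the sources used here. RNA extraction is given as RNeasy in the labels and Trizol in the methods. The authors deposited raw counts of reads per gene and FPKM per library for 34745 genes, and the deposited FPKM followed from the counts to a relative 0.000928. All sample columns were used (0 left out).

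Tests on the counts used edgeR 4.0.16 (R 4.3.3): filterByExpr, TMM (factors 0.9592 to 1.031 over 12 libraries) and the quasi-likelihood F test on the 6 libraries of a comparison, or on all 12 for the interaction, with Benjamini-Hochberg adjustment over all genes tested and calls at 0.05. The filter took a gene by its counts over the libraries of the fit. In the main fits Sod3 passed only in LPS + M2-Exo against LPS and in the interaction. Among the alternatives it also passed in the fit over all 12 libraries and in some fits with 1 library left out. CPM used TMM-scaled totals, levels between genes used FPKM, and 95% intervals used the standard error of each fit. A count of 0 allows up to 3 counts, or 0.121 to 0.19 CPM by library. The intervals of the fits include the spread between libraries, whereas these limits and the exact intervals of the Sod3 count ratios cover counting error only. The common biological coefficient of variation was 8.78% to 9.41%. No pair of libraries agreed within sampling noise. The code of the fits was also run on simulated data, of which no result is given here.

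The genes and lists were chosen with earlier results of these data known. All 10 genes were named. From the list of 35 partner and source genes, the called ones with the largest absolute log2 fold change were named. These were up to 8 per injury comparison and 4 per M2-Exo comparison. Txn1, Txn2, Txnrd1, Txnrd2, Sesn3, Glrx2, Gstp1 and the genes below the filter were added after their values were seen. So were single markers and genes sharing sequence. Likeness was read for the 2 genes of widest range, over genes with at least 10 CPM on average. Ero1a and Ero1b were matched by older symbols (2 genes). Shared stretches of at least 100 bases and 98% identity were found with BLAST 2.17.0.

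Alternatives were other normalizations (RLE, library size alone, upper quartile), no filter or a minimum of 10 counts per library, DESeq2 1.42.0 (Wald), a replicate block, a fit over all 12 libraries, limma 3.58.1 on log2(FPKM + 1) or log2(FPKM + 0.1), keeping genes from a mean FPKM of 1 or all genes, and each library left out in turn.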

Additional observations from a re-analysis of the deposited data

Results flagged for a closer look

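For Prdx1, the libraries with M2-Exo lay on opposite sides of those without it in the injuries, although edgeR called neither difference (adjusted p = 0.375 in hyperoxia and 0.609 in LPS). All 3 Hyp + M2-Exo libraries (418.3 to 427.1 CPM) lay above all 3 Hyp libraries (373.5 to 387.9 CPM), and all 3 LPS + M2-Exo libraries (608.6 to 640.7 CPM) lay below all 3 LPS libraries (641.4 to 677.2 CPM). Over all genes, 15.6% in hyperoxia and 16.6% in LPS did not overlap in either direction. In the same LPS groups 10 of 11 macrophage markers tested had a negative log2 fold change, beside a median of 0.003 over all genes. Of these markers 7 had an unadjusted p under 0.05 in edgeR, as had 11.1% of all genes. The summed marker level was 445 to 490 CPM without and 341 to 398 CPM with M2-Exo. In the hyperoxia groups, where Prdx1 was higher with M2-Exo, 9 of 11 markers were also negative, beside a median of -0.002 over all genes. There 0 markers had an unadjusted p under 0.05, beside 8.48% of all genes. The summed marker level there overlapped, at 117 to 122 CPM without and 90.5 to 137 CPM with M2-Exo. The part of these markers in the Prdx1 value was not tested. The effect in hyperoxia minus that in LPS was 0.22 on the log2 scale (SE 0.044). By the interaction term it had an adjusted p of 0.191 in edgeR and 0.00672 in DESeq2, which called 70 of all genes where edgeR called 5, with 0.00672 to 0.408 over the alternatives.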

How the results depend on the processing

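Of the log2 fold changes of single genes under the alternatives, 821 kept their direction and their side of the threshold, 21 changed sign and 1 passed the threshold, that of Prdx1 in the interaction by DESeq2, which made the count of genes called there 1 in place of 0. The 21 that changed sign belonged to 9 fold changes, and 0 of them were called (lowest adjusted p = 0.907). Leaving out 1 library at a time, in Hyp + M2-Exo against Hyp the log2 fold change ran from -0.076 to 0.042 for Prdx6 and from -0.0070 to 0.093 for Prdx2. In LPS + M2-Exo against LPS it ran from -0.018 to 0.032 for Prdx4, from -0.026 to 0.014 for Sod1 and from -0.0090 to 0.038 for Prdx3. In the interaction it ran from -0.0089 to 0.061 for Cat, from -0.16 to 0.61 for Sod3, from -0.10 to 0.00062 for Prdx2 and from -0.013 to 0.051 for Prdx3. Prdx4 in LPS + M2-Exo against LPS was -0.0025 with upper quartile normalization, and Sod3 in the interaction was -0.013 by limma on log2(FPKM + 1) with no filter; the cause was not tested. Small M2-Exo differences that kept their sign also moved over the 17 alternatives. Among them, in hyperoxia Prdx5 ran from 0.087 to 0.21, Sod1 from 0.037 to 0.13 and Cat from 0.019 to 0.088. In LPS, Prdx5 ran from -0.13 to -0.037. In Hyp against LPS Prdx3 stayed between 0.15 and 0.28 with an adjusted p up to 0.0288, and with M2-Exo between 0.18 and 0.29 with an adjusted p up to 0.0494. Library size alone moved the median of all genes in Hyp against LPS from 0.01 to 0.10 and the share of higher calls from 50.2% to 56.1%. With no filter, edgeR called Sod3 lower in Hyp against LPS (-1.91, adjusted p = 0.0279). It did so too in Hyp + M2-Exo against LPS + M2-Exo (-1.64, adjusted p = 0.0245). The filtered edgeR fit over all 12 libraries also called Sod3 lower, without M2-Exo (-1.91, adjusted p = 0.00531) and with it (-1.65, adjusted p = 0.00796). Sod3 passed that filter through its higher counts in the LPS and LPS + M2-Exo libraries. By limma with no filter Sod3 was again called lower (adjusted p = 0.0439 without and 0.0102 with M2-Exo).

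Counts over all genes moved more. For Hyp + M2-Exo against Hyp (14), DESeq2 called 37, all 12 libraries in 1 fit 2, and limma with no filter 7. For LPS + M2-Exo against LPS (25), DESeq2 called 130 and all 12 libraries in 1 fit 12. For the interaction (5), no filter gave 13, limma with no filter 13 and DESeq2 70. The cause was not tested. The replicate numbers gave little sign of pairing. Correlations of same-numbered deviations lay between -0.0189 and 0.0504, and those of other-numbered ones between -0.0785 and 0.0364. In Hyp + M2-Exo against Hyp the highest same-numbered value was 0.0504, above the highest other-numbered one of 0.0311. With 3 libraries per group these values cannot exclude pairing. With the replicate block, 10259, 9864, 8, 6 and 3 genes were called in Hyp against LPS, Hyp + M2-Exo against LPS + M2-Exo, Hyp + M2-Exo against Hyp, LPS + M2-Exo against LPS and the interaction, and no call of the 10 genes changed.

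With each library left out in turn, the genes of the family called were 9 to 9, 9 to 10 (Sod3 joining), 0 to 0, 0 to 0 and 0 to 0 in that order, and all genes called 10046 to 10301, 9603 to 9913, 12 to 21, 21 to 39 and 4 to 34. LPS replicate 1 left out gave the 39, and Hyp + M2-Exo replicate 1 left out gave the 34. In the interaction, leaving out LPS replicate 1 gave 8, LPS replicate 3 9, LPS + M2-Exo replicate 2 10 and Hyp replicate 2 9. Depth limits Sod3, with 12 counts at most in a library. Sod3 joined only where its LPS + M2-Exo counts took it past the filter.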
